A study of Mus musculus with 7 samples.

Results

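The transcripts described here are those of the mouse T cell receptor gamma locus in CD4+ T cells of mice bred for conditional deletion of Kdm6a, which encodes a histone H3 demethylase acting on lysine 27. The set holds 3 constant genes (Tcrg-C1, Tcrg-C2, Tcrg-C4), 2 variable genes (Tcrg-V1, Trgv2), 1 joining gene (Trgj4), the delta constant gene Trdc, and Sox13, which encodes a transcription factor of the gamma delta lineage. These 8 genes were chosen on their CPM (counts relative to the library's scaled total) in conditional knockout (cKO) against wild-type (WT) libraries, so their own values in that contrast are given as a description, with no test. Of the 8, 7 had a row among the 39017 genes of the table, and Trdc, whose identifier matched none, was not analysed here.

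The libraries came from female C57BL/6 mice with EAE (experimental autoimmune encephalomyelitis), induced as a model of multiple sclerosis. The 4 cKO libraries (replicates 2, 3, 7 and 12) carried 2 floxed copies of Kdm6a and CD4-Cre (+/-). The 3 WT libraries (replicates 10, 14 and 19) carried the same floxed copies and CD4-Cre (-/-), and came from littermates. Cells of the lymph nodes, taken on day 17, were kept for 18 hours with 25 µg/mL of a peptide of myelin oligodendrocyte glycoprotein (residues 35 to 55), and CD4+ T cells were then sorted. CD4-Cre uses regulatory elements of Cd4 that are active in thymocytes expressing both CD4 and CD8, so CD8 T cells also lose the floxed gene. Cre was carried by cKO animals alone and cannot be told apart from the deletion. No age is given in the labels, nor are libraries tied to single animals, and p-values therefore describe spread among these libraries, which may be technical.

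T cells carry either an alpha beta or a gamma delta receptor. The mouse gamma locus is built of clusters in which variable and joining segments lie beside a constant gene, and a joined VJ exon is spliced to the constant gene of its own cluster. Gamma rearrangements also occur in many alpha beta T cells, where a silencing step normally keeps the locus low. Interleukin-7 receptor signalling through STAT5, and the factors RUNX and MYB, act on enhancers beside the constant genes. Sox13, an HMG-box factor, is known in mice for expression in gamma delta thymocytes and for binding the T cell factor TCF1.

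The constant genes are copies of one another, which bears on how far their reads can be told apart. The first 120 bases of Tcrg-C1 (chr13:19214103-19214222, plus strand), Tcrg-C2 (chr13:19307432-19307551, minus strand) and Tcrg-C4 (chr13:19344558-19344677, plus strand) follow, 5′ to 3′, from GENCODE M21 transcripts on GRCm38 (mm10). Capitals mark bases that differ from Tcrg-C1, which are 2 in Tcrg-C2 and 14 in Tcrg-C4.
Tcrg-C1: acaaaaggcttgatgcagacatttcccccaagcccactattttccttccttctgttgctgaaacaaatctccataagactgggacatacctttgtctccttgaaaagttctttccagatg
Tcrg-C2: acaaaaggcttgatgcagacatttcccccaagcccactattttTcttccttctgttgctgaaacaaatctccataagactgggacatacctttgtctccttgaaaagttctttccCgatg
Tcrg-C4: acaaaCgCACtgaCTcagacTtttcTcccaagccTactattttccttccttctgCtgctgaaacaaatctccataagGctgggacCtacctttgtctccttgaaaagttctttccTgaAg

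The variable genes are shown for the same reason, by the first 120 bases of the second exon of Tcrg-V1 (chr13:19340151-19340270, plus strand) and of Trgv2 (chr13:19336760-19336879, minus strand), where capitals mark the 3 bases of Trgv2 that differ from Tcrg-V1. The joining segment Trgj4 (chr13:19342152-19342212, plus strand), whose 61 bases follow whole, has no copy among the members.
Tcrg-V1: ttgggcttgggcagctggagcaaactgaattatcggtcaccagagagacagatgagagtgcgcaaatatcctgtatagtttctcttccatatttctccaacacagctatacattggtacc
Trgv2: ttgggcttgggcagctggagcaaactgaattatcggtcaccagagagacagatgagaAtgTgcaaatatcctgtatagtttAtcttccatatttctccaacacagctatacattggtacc
Trgj4: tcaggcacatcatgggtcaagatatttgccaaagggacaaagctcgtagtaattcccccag

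Over their coding bases, Tcrg-C1 and Tcrg-C2 were 97.4% identical (487 of 500 aligned bases), and Tcrg-C4 was 78.7% identical to Tcrg-C1 and 79.4% to Tcrg-C2. Tcrg-V1 and Trgv2 were 95.7% identical (332 of 347). Of all stretches of 50 bases, 34.2% of those in Tcrg-C1, 25.4% of those in Tcrg-C2, 24.6% of those in Tcrg-V1 and 7.01% of those in Trgv2 also occurred in another gene of the locus. Tcrg-C4, Trgj4 and Sox13 shared no stretch of 50 bases with another annotated gene of the comparison. At 100 bases the shares were 8.24% for Tcrg-C1, 0.613% for Tcrg-C2, 1.82% for Tcrg-V1 and 0% for Tcrg-C4 and Trgv2. The sources used here do not give the read length or the treatment of reads that map to several places, so the split of reads between Tcrg-C1 and Tcrg-C2, and between Tcrg-V1 and Trgv2, is uncertain. None of the 7 members overlapped another annotated gene.

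Total counts were 17910536 to 23721927 in cKO and 25360660 to 28697579 in WT libraries, and 3 counts corresponded to 0.125 to 0.175 CPM in cKO and 0.104 to 0.118 CPM in WT libraries. Kdm6a itself had 104, 96.3, 100 and 104 CPM in cKO libraries 2, 3, 7 and 12, against 120, 125 and 113 CPM in WT libraries 10, 14 and 19 (log2 fold change -0.24 ± 0.06 SE, edgeR adjusted p = 0.0414), a call kept in 7 of 14 alternative settings. The counts cover the whole gene and not the floxed part alone. Cd4 overlapped between the groups, at 1028 to 1241 CPM in cKO and 986.5 to 1130 CPM in WT libraries. One library, cKO replicate 2, stood apart: the chi-square per gene was 51.9 to 61.8 in its pairs with the other cKO libraries, which gave 7.41 to 16.8 among themselves, and member values are therefore also given without it.

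The C2 cluster, a variable and a constant gene read from the minus strand, was higher in all 4 cKO libraries than in any WT library. Trgv2, its variable gene (chr13:19336573-19337167), had 5.26, 4.37, 3.56 and 2.65 CPM in cKO libraries 2, 3, 7 and 12, against 0.851, 0.694 and 0.630 CPM in WT libraries 10, 14 and 19. The WT libraries lay close together, while the cKO libraries spread from replicate 12 as the lowest to replicate 2 as the highest. Trgv2 thus averaged 3.96 ± 1.11 CPM in cKO and 0.725 ± 0.114 CPM in WT libraries (SD, n = 4 and 3), a ratio of 5.46 and a fitted log2 fold change of 2.44 ± 0.29 (2.28 without cKO replicate 2). Tcrg-C2 (chr13:19304649-19307551), the constant gene of the cluster, had 12.2, 8.31, 7.07 and 4.40 CPM in cKO libraries, against 3.06, 1.18 and 1.30 CPM in WT libraries. The order of the cKO libraries was that of Trgv2, and WT replicate 10 was the highest of its group. Its means were 8.0 ± 3.25 CPM in cKO and 1.85 ± 1.05 CPM in WT libraries, 4.34-fold apart, with a log2 fold change of 2.11 ± 0.42 over all libraries and 1.84 without cKO replicate 2.

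The C4 cluster, on the opposite strand and next along the chromosome, was also higher in all 4 cKO libraries than in any WT library. Tcrg-C4 (chr13:19344558-19352756), its constant gene and the one with no shared stretch of 50 bases, had 11.3, 7.52, 6.34 and 4.12 CPM in cKO libraries 2, 3, 7 and 12, against 1.93, 1.39 and 1.69 CPM in WT libraries 10, 14 and 19. The groups did not overlap, and cKO replicate 12 was again the lowest of its group. Tcrg-C4 averaged 7.33 ± 3.02 CPM in cKO and 1.67 ± 0.274 CPM in WT libraries, a ratio of 4.38, and its log2 fold change was 2.13 ± 0.33, or 1.84 without cKO replicate 2. Tcrg-V1 (chr13:19339989-19340454), the variable gene of the cluster, had 1.52, 1.12, 0.911 and 0.758 CPM in cKO libraries, against 0.387, 0.416 and 0.118 CPM in WT libraries. Replicates 2 and 12 were again the highest and lowest cKO libraries, the highest WT library was replicate 14, and the values rest on 16 to 27 reads in cKO and 3 to 12 reads in WT libraries. The log2 fold change of Tcrg-V1 was 1.77 ± 0.44, and 1.40 to 2.05 with each library left out in turn (1.57 without cKO replicate 2). Trgj4, its joining segment (chr13:19342152-19342212), rested on 11, 13, 14 and 4 reads in cKO libraries, against 3 reads in each WT library. That is 0.643, 0.541, 0.608 and 0.189 CPM in cKO, against 0.116, 0.104 and 0.118 CPM in WT libraries, which are at the limit of 3 counts. Replicate 12 was the lowest cKO library, and without cKO replicate 2, 3 or 7 this segment no longer passed the filter on low counts.

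Tcrg-C1 (chr13:19214103-19217024), the constant gene at the other end of the locus, did not share this separation. It had 5.43, 3.24, 3.82 and 4.03 CPM in cKO libraries 2, 3, 7 and 12, against 5.14, 2.57 and 2.80 CPM in WT libraries 10, 14 and 19. The groups overlapped because WT replicate 10 exceeded 3 of the 4 cKO libraries. The means were 4.13 ± 0.93 CPM in cKO and 3.50 ± 1.43 CPM in WT libraries, and the log2 fold change of 0.23 ± 0.28 was 0.05 without WT replicate 14, 0.62 without WT replicate 10 and 0.08 without cKO replicate 2.

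Of the 7 members with a row, 5 were higher in every cKO library than in every WT library, 1 (Sox13) was lower in every cKO library and 1 (Tcrg-C1) overlapped. Over all 15968 genes tested, 10.3% had every cKO library above every WT library and 10.7% had every cKO library below. The members were chosen on this contrast, so nothing is read from these counts.

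**Figure D1:**
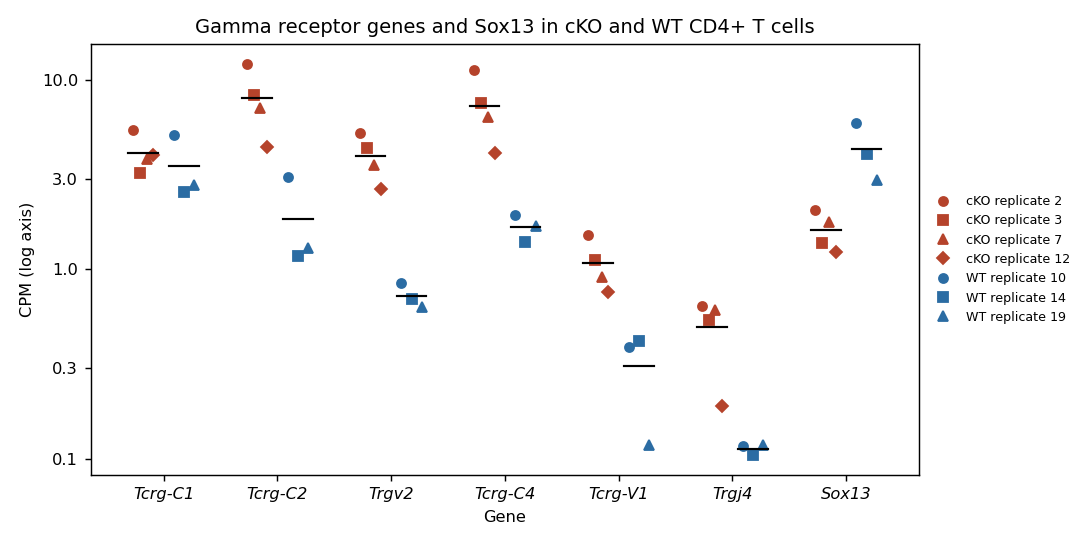
CPM on a log axis of the 7 members with a row, one point per library (red, 4 cKO; blue, 3 WT; shape gives the replicate) and a black line at each group mean. The cKO points lie above the WT points for Tcrg-C2, Trgv2, Tcrg-C4, Tcrg-V1 and Trgj4, overlap them for Tcrg-C1 and lie below them for Sox13.

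The reads were also summed by cluster. These sums keep the uncertain splits, since Tcrg-C1 and Tcrg-C2 lie in different clusters, and so do Tcrg-V1 and Trgv2. The C2 cluster summed to 17.5, 12.7, 10.6 and 7.06 CPM in cKO libraries 2, 3, 7 and 12, against 3.91, 1.87 and 1.93 CPM in WT libraries 10, 14 and 19. The C4 cluster summed to 13.5, 9.19, 7.86 and 5.07 CPM in cKO libraries, against 2.44, 1.91 and 1.93 CPM in WT libraries. The ratios of the group means of these sums were close to each other, 4.65 for the C2 cluster and 4.26 for the C4 cluster. The C1 cluster, with Tcrg-V4, Tcrg-V5, Tcrg-V6, Tcrg-V7 and Tcrg-C1, summed to 9.87, 5.70, 5.82 and 6.16 CPM in cKO libraries, against 8.08, 4.44 and 4.49 CPM in WT libraries, where WT replicate 10 lay above 3 cKO libraries. The C3 cluster (Tcrg-V3 and Tcrg-C3) gave 0.117 to 0.260 CPM in cKO and 0.0394 to 0.173 CPM in WT libraries, with 1 to 6 reads a library. With the reads as assigned, the higher cKO levels were thus in the 2 clusters at the far end of the locus, as the map by position shows.

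**Figure D2:**
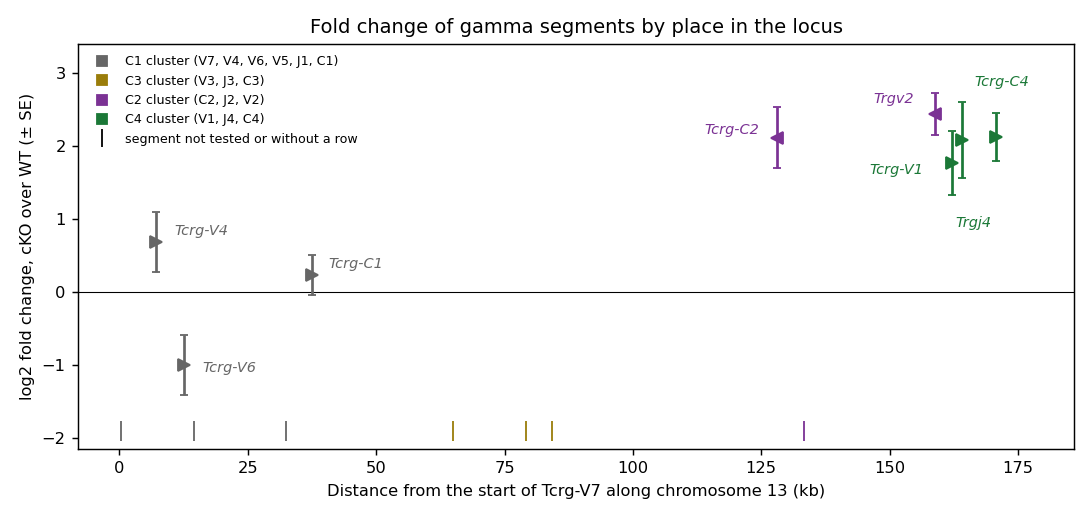
Fitted log2 fold change, cKO over WT, with its standard error (SE) for the 8 gamma segments that passed the filter, by distance from the start of Tcrg-V7 in kb. Arrows point along the strand, colours give the cluster, and ticks at the bottom mark segments not tested or without a row. The C2 and C4 cluster segments lie between 1.77 and 2.44, and those of the C1 cluster between -1.0 and 0.69.

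The 3 constant genes together had 29.0, 19.1, 17.2 and 12.6 CPM in cKO libraries 2, 3, 7 and 12, against 10.1, 5.13 and 5.79 CPM in WT libraries 10, 14 and 19. The groups did not overlap, but the lowest cKO library and the highest WT library were close. The fitted log2 fold change of the sum was 1.47, and leaving out each library in turn gave 1.22 (without cKO replicate 2) to 1.83 (without WT replicate 10). The shares within the sum follow from the levels of each gene given above, and the split between Tcrg-C1 and Tcrg-C2 is uncertain. Tcrg-C1 held 18.8%, 17.0%, 22.2% and 32.1% of the constant reads in cKO libraries, against 50.8%, 50% and 48.3% in WT libraries. The Wilson 95% interval was 26.7% to 37.9% in cKO replicate 12 and 40.4% to 56.3% in WT replicate 19. These intervals treat reads as independent, hold no spread between libraries and give no test of the groups. Tcrg-C2 held 42.1%, 43.6%, 41.1% and 35.1% in cKO libraries, against 30.2%, 23.0% and 22.4% in WT libraries. Tcrg-C4 held 39.1%, 39.4%, 36.8% and 32.8% in cKO libraries, against 19.1%, 27.0% and 29.3% in WT libraries. In these shares, as in the levels, cKO replicate 12 was the cKO library nearest to the WT libraries.

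**Figure D3:**
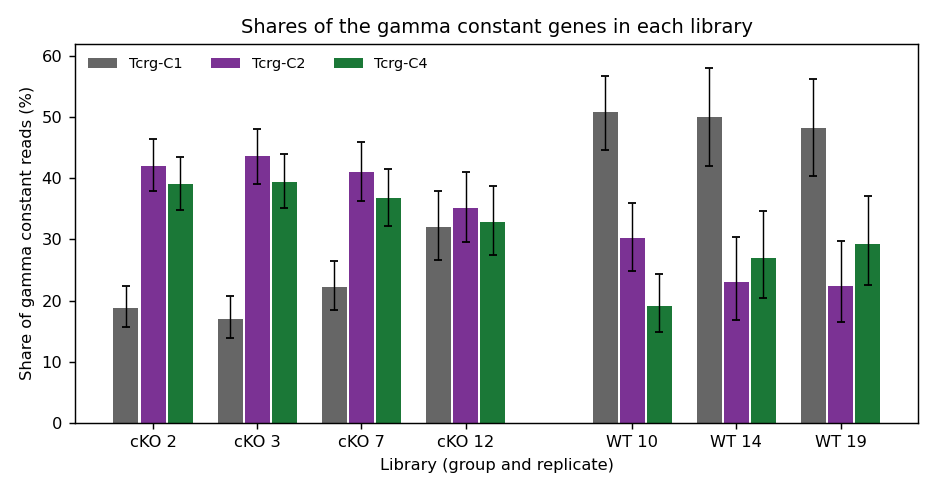
Share (%) of the summed reads of Tcrg-C1, Tcrg-C2 and Tcrg-C4 in each library, 4 cKO at the left and 3 WT at the right, with Wilson 95% intervals for counting error. Tcrg-C1 holds 17.0% to 32.1% in cKO and 48.3% to 50.8% in WT libraries.

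Set against the alpha beta receptor, the gamma constant genes were low in both groups. Per kilobase of exon, Tcrg-C2 had 8.75 ± 3.55 CPM in cKO and 2.02 ± 1.15 CPM in WT libraries, and Tcrg-C4 had 7.44 ± 3.07 CPM in cKO and 1.70 ± 0.278 CPM in WT libraries. Tcrg-C1 had 4.47 ± 1.01 CPM per kilobase in cKO and 3.79 ± 1.54 in WT libraries. The order by mean was thus Tcrg-C2, Tcrg-C4, Tcrg-C1 in cKO libraries and Tcrg-C1, Tcrg-C2, Tcrg-C4 in WT libraries, and the SDs of neighbours in each order overlapped. Trac, the alpha constant gene, had 252 ± 22.6 CPM per kilobase in cKO and 224 ± 24.1 in WT libraries. The summed gamma constant genes per kilobase came to 13.9%, 8.01%, 7.04% and 4.88% of Trac in cKO libraries 2, 3, 7 and 12, against 4.99%, 2.69% and 2.46% in WT libraries 10, 14 and 19. On this scale the groups overlapped, since cKO replicate 12 lay below WT replicate 10. In bulk RNA, a different number of cells with such transcripts and a different amount of RNA per cell cannot be told apart.

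Another 15 gamma and delta receptor rows were in the table, of which 10 had at least 10 reads over the 7 libraries, 3 had fewer and 2 (Trdd1 and Trdd2) had none. Of the 5 that passed the filter, edgeR, DESeq2 and limma voom called 0, and 1 had an unadjusted p under 0.05 in edgeR. Tcrg-V6, a variable gene of the C1 cluster, was that one, with 0.467, 0.249, 0.260 and 0.426 CPM in cKO and 0.928, 0.382 and 0.788 CPM in WT libraries (log2 fold change -1.0 ± 0.42, edgeR adjusted p = 0.202). Tcrg-V4, of the same cluster, averaged 2.13 ± 1.02 CPM in cKO and 1.31 ± 0.554 CPM in WT libraries (0.69 ± 0.41, adjusted p = 0.379). Among delta segments, Trdv1 had 0.409, 0.832, 0.738 and 2.23 CPM in cKO and 0.580, 0.451 and 0.748 CPM in WT libraries. Its highest value was in cKO replicate 12, the cKO library lowest in the C2 and C4 clusters. Trdv4 (log2 fold change -0.24, adjusted p = 0.791) and Trdv5 (0.68, adjusted p = 0.527) also overlapped between the groups. Tcrg-V5, Tcrg-V3, Tcrg-C3, Trdv2-2 and Trdj2 had at least 10 reads in all but were not tested, and none had more than 7 reads in a library. The 9 delta rows summed to 2.51, 2.41, 3.65 and 4.31 CPM in cKO libraries, against 3.4, 1.94 and 2.88 CPM in WT libraries, so the groups overlapped, and cKO replicates 2 and 3 were the lowest of their group. Trdv5 overlaps Trdc on the opposite strand, and the counting's use of strand is not given in the sources used here.

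Sox13 (chr1:133382303-133424377, minus strand) differed in the other direction from the gamma segments of the C2 and C4 clusters. It had 2.05, 1.37, 1.78 and 1.23 CPM in cKO libraries 2, 3, 7 and 12, against 5.92, 4.06 and 2.95 CPM in WT libraries 10, 14 and 19. No cKO library reached the lowest WT library, and WT replicate 10, the WT library with the most Tcrg-C1 and Tcrg-C2, also had the most Sox13. The means were 1.61 ± 0.373 CPM in cKO and 4.31 ± 1.5 CPM in WT libraries, with a log2 fold change of -1.43 ± 0.28 (-1.64 to -1.13 with each library left out in turn, and -1.56 without cKO replicate 2). Among 8 tested SOX and TCF factors, other HMG-box proteins of this kind or their partners, 2 rose and 1 fell by edgeR's test. Over all 15968 genes tested, edgeR called 2.79% higher and 3.64% lower in cKO libraries. Sox4, which acts early in the interleukin-17 branch of mouse gamma delta cells, rose to 33.8 ± 5.01 CPM in cKO libraries, against 16.1 ± 0.733 CPM in WT libraries (log2 fold change 1.07 ± 0.12, edgeR adjusted p = 0.000743). Sox5 rose to 2.16 ± 0.297 CPM in cKO libraries, against 0.753 ± 0.171 CPM in WT libraries (1.52 ± 0.26, adjusted p = 0.00913), a call lost without WT replicate 10 (0.0503) or 14 (0.055). Tcf7l1, a repressor of Wnt target genes, fell to 5.53 ± 0.745 CPM in cKO libraries, against 8.33 ± 0.219 CPM in WT libraries (-0.59 ± 0.14, adjusted p = 0.0358), which 6 of 14 alternative settings ended, at 0.0552 to 0.136. Tcf7, which encodes TCF1, averaged 2121 ± 276.5 CPM in cKO and 2380 ± 202.2 CPM in WT libraries (-0.17, adjusted p = 0.429). The median log2 fold change of the list was 0.0893, beside 0.0106 over all genes tested.

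The genes of the alpha beta receptor and of V(D)J recombination gave no call. For the receptor and CD3 list, edgeR called 0 of 7 tested genes, with 1 at an unadjusted p under 0.05, and the counts were 0 by DESeq2 and 1 by voom. The list's median log2 fold change was -0.00456. Cd3e, a signalling chain of both receptor types, averaged 435.7 ± 20.0 CPM in cKO and 381 ± 24.3 CPM in WT libraries (0.19 ± 0.06, edgeR adjusted p = 0.118). Trac (0.17, adjusted p = 0.332), Cd3d (-0.12) and Cd247 (-0.10) overlapped between the groups. For recombination, 0 of 9 tested genes were called by edgeR, DESeq2 or voom, and 0 had an unadjusted p under 0.05 in edgeR. Rag1 and Rag2, the recombinase that cuts receptor segments, had 0 counts in every library. The end-joining genes Prkdc, Xrcc6 and Xrcc5 and the cofactor Hmgb1 had log2 fold changes of -0.04, 0.09, 0.07 and -0.08, none past the threshold.

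Among 17 regulators bound at or signalling to the gamma locus, edgeR called 1 higher and 1 lower, beside 2.79% and 3.64% of all genes. The counts were 1 and 3 by DESeq2, and 2 and 2 by voom. Before adjustment, the edgeR p was below 0.05 for 6 genes with higher cKO levels and 3 with lower ones. Id3, an inhibitor of E proteins that is strongly induced by gamma delta receptor signals, rose to 17.4, 19.5, 19.5 and 16.9 CPM in cKO libraries 2, 3, 7 and 12, against 11.7, 8.22 and 10.8 CPM in WT libraries 10, 14 and 19. The groups did not overlap (0.84 ± 0.13, adjusted p = 0.0059). Jak3, a kinase of interleukin-7 receptor signalling, fell to 682 ± 54.8 CPM in cKO libraries, against 887 ± 58.0 CPM in WT libraries (-0.38 ± 0.08, adjusted p = 0.0215), a call ended by leaving out any WT library (0.0514 to 0.105) or cKO replicates 2 and 7 together (0.0676). Satb1 (-0.06) and Jak1 (-0.07), the most abundant of the list, were not past the threshold. The median log2 fold change of the list was 0.00768.

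Of 18 transcription factors of gamma delta lineages, 4 rose and 2 fell by edgeR's test, beside 2.79% and 3.64% of all genes. DESeq2 called 4 higher and 5 lower, and voom 4 and 4. Before adjustment, the edgeR p was below 0.05 for 6 genes with higher cKO levels and 5 with lower ones. The median log2 fold change was 0.312. Those that rose were Eomes and Tbx21, T-box factors of interferon-producing lymphocytes, with Id3 and Sox4. Eomes rose to 44.3, 28.2, 24.6 and 23.7 CPM in cKO libraries 2, 3, 7 and 12 (2.51 ± 0.26, edgeR adjusted p = 0.000653). It had 5.38, 3.85 and 6.62 CPM in WT libraries 10, 14 and 19. Tbx21 rose to 41.4 ± 10.7 CPM in cKO libraries, against 18.7 ± 4.21 CPM in WT libraries (1.14 ± 0.22, adjusted p = 0.0142), a call lost without WT replicate 10 (0.0694) or 19 (0.0678). Zbtb16, the factor of innate-like T cells, named after its values were seen, fell to 4.78 ± 1.95 CPM in cKO libraries, against 13.6 ± 4.55 CPM in WT libraries (-1.53 ± 0.31, adjusted p = 0.0199), a call lost when cKO replicate 3 (0.0545) was left out, and likewise WT replicate 10 (0.084) or 14 (0.106).

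Of 20 effector and surface genes of gamma delta cells, 3 rose and 0 fell by edgeR's test, beside 2.79% and 3.64% of all genes. The median log2 fold change was -0.094. In edgeR 4 were lower at an unadjusted p under 0.05, while 2 were called lower by DESeq2 and 4 by voom. The gene 5830411N06Rik, which encodes the scavenger receptor SCART2 of gamma delta cells, rose to 103, 63.6, 67.8 and 68.6 CPM in cKO libraries 2, 3, 7 and 12, against 38.4, 41.6 and 27.5 CPM in WT libraries 10, 14 and 19. Replicate 2 stood above the other cKO libraries, and the log2 fold change was 1.08 ± 0.19 (adjusted p = 0.011) with it and 0.89 (adjusted p = 0.00501) without it. Il2rb, a chain of the interleukin-2 and interleukin-15 receptors, rose to 692 ± 99.7 CPM in cKO libraries, against 439 ± 54.6 CPM in WT libraries (0.66 ± 0.12, adjusted p = 0.0135), a call lost without WT replicate 14 (0.0634) or 19 (0.0604). Aqp3, a water and glycerol channel, rose to 24.3 ± 0.398 CPM in cKO libraries, against 17.4 ± 3.09 CPM in WT libraries (0.49 ± 0.11, adjusted p = 0.0339), which 6 of 14 alternatives ended, at 0.0549 to 0.143. Ltb, a tumour necrosis factor family cytokine, overlapped between the groups (-0.30, adjusted p = 0.194). Cd163l1 (0.23, adjusted p = 0.516) and Il23r (-0.38, adjusted p = 0.303), named after their values were seen, overlapped too. Serpinb1a, named likewise, was lower in every cKO library than in any WT library (-0.80, adjusted p = 0.0961). Over the 6 lists together, which hold genes of other T cells too, 12 of 75 tested genes were called, 8 higher and 4 lower (16%, beside 6.44% of all genes), and the median log2 fold change was 0.00768. The lists were chosen with earlier results of these data known, so nothing is read from this share.

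**Figure D4:**
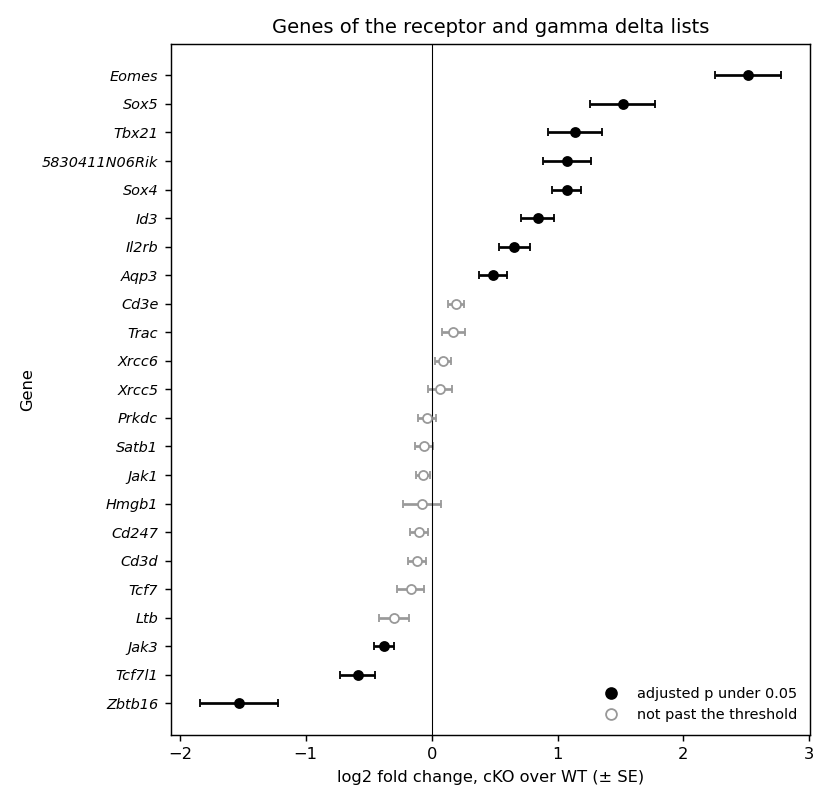
Log2 fold change, cKO over WT, with SE, of 23 named genes of the 6 lists. Filled black points (11 genes, from -1.53 for Zbtb16 to 2.51 for Eomes) are past the adjusted p threshold of 0.05, and open grey points are not.

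The marker lists of other cell types held values that differed between the same libraries, and their part in the gamma locus levels was not tested. The 12 natural killer (NK) and innate lymphoid genes summed to 329, 197, 169 and 177 CPM in cKO libraries 2, 3, 7 and 12, against 108, 100 and 121 CPM in WT libraries 10, 14 and 19. A pair of genes made up most of these sums. Il1rl1, the interleukin-33 receptor, had 203, 72.3, 57.4 and 72.1 CPM in cKO and 44.2, 31.8 and 31.5 CPM in WT libraries, and Prf1, the gene of perforin, had 44.4 to 64.1 CPM in cKO and 45.1 to 72.9 CPM in WT libraries. Of the 10 tested, 4 rose by edgeR's test, beside 2.79% of all genes, and 5 by DESeq2 and by voom. Those named here were picked with their values known. Klrk1, which encodes the activating receptor NKG2D, rose to 34.9 ± 11.9 CPM in cKO libraries, against 7.07 ± 1.68 CPM in WT libraries (2.30 ± 0.28, edgeR adjusted p = 0.00156), and the others were Klrb1c, Klre1 and Klra9, a gene of a family with near-identical copies. Ncr1, an activating receptor of NK cells, had 0.887 ± 0.311 CPM in cKO and 0.865 ± 0.224 CPM in WT libraries (0.01 ± 0.34, adjusted p = 0.99). The median log2 fold change of the list was 1.1.

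The 5 CD8 T cell genes summed to 24.2 to 31.7 CPM in cKO and 12.7 to 16.5 CPM in WT libraries, with a median log2 fold change of 1.57. By edgeR 1 rose, Crtam (2.55 ± 0.23, adjusted p = 0.00036), beside 2.79% of all genes. DESeq2 and voom each called 3 higher. Cd8b1, a chain of CD8, had 12.6 to 13.5 CPM in cKO and 8.74 to 11.1 CPM in WT libraries (0.38 ± 0.11, edgeR adjusted p = 0.072), and Gzmk, a granzyme gene, had 1.58 to 3.68 CPM in cKO and 0.542 to 1.30 CPM in WT libraries (1.57 ± 0.41, adjusted p = 0.0543). For both, every cKO library lay above every WT library. Cd8a had 0.284 to 2.78 CPM in cKO and 0.382 to 0.735 CPM in WT libraries.

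The 10 monocyte and macrophage genes summed to 92.4 CPM in cKO replicate 2, 26.4 to 47.3 CPM in the other cKO libraries and 29.2 to 33.3 CPM in WT libraries, with a median log2 fold change of 0.857. The 9 B cell genes summed to 669, 495, 757 and 360 CPM in cKO libraries 2, 3, 7 and 12, against 502, 386 and 381 CPM in WT libraries 10, 14 and 19, and Ighm made up most of it, at 335 to 646 CPM in cKO and 344 to 445.5 CPM in WT libraries. The median log2 fold change of the B cell list was 1.04, while the cKO over WT ratio of Ighm was 1.27.

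Of the remaining lists, the 12 CD4 T cell genes summed to 3370 to 3790 CPM in cKO and 3190 to 3530 CPM in WT libraries, with a median log2 fold change of 0.082. The dendritic cell genes summed to 17.3 to 31.8 CPM in cKO and 14.4 to 19.8 CPM in WT libraries (median 0.234), and neutrophil genes to 0.616 to 11.3 CPM in cKO and 1.06 to 7.93 CPM in WT libraries (median 0.728, 2 tested genes). The natural killer T and MAIT list summed to 144 to 213 CPM in cKO and 170 to 190 CPM in WT libraries (median -0.363). In it edgeR called 1 gene lower, Zbtb16, and DESeq2 and voom each called 2 lower. Trav11, Clec9a and Elane were at 0 counts in every library. For the CD4, B cell, monocyte, dendritic cell and neutrophil lists edgeR called 0 genes, with 5, 1, 3, 1 and 0 at an unadjusted p under 0.05, DESeq2 called 2, 1, 1, 0 and 0, and voom called 2, 0, 0, 0 and 0. Over the 8 marker lists, edgeR called 6 of 56 tested genes, 5 higher and 1 lower (10.7%, beside 6.44% of all genes), and the median log2 fold change was 0.421, beside 0.0106 over all genes. These lists too were chosen with earlier results known, so nothing is read from this share.

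The genes around the members were counted within 500 kb. Near the gamma locus 5 of 9 rows were tested and 1 rose by edgeR, where 2.79% of all genes were called higher. In edgeR 3 were higher at an unadjusted p under 0.05, while 3 were called higher by DESeq2 and 2 by voom. That gene, Amph, which encodes a protein of endocytosis and lies 27.1 kb from the C1 end of the locus, rose to 1.17, 0.873, 0.868 and 1.14 CPM in cKO libraries 2, 3, 7 and 12, against 0.193, 0.382 and 0.0788 CPM in WT libraries 10, 14 and 19 (2.15 ± 0.45, edgeR adjusted p = 0.021). The call was lost without WT replicate 10 (0.0996) or 19 (0.066), and without cKO replicates 2 and 7 (0.0762). Stard3nl, a gene of cholesterol transport 4.92 kb from the C4 end, averaged 16.4 ± 1.70 CPM in cKO and 12.5 ± 0.651 CPM in WT libraries (0.39 ± 0.10, adjusted p = 0.0575). Epdr1, named after its values were seen, had 1.34, 1.16, 0.477 and 1.80 CPM in cKO libraries, against 0.464, 0.416 and 0.236 CPM in WT libraries (1.66 ± 0.47, adjusted p = 0.0735). Near Trdc 2 of 17 tested genes rose by edgeR, 4 were higher at an unadjusted p under 0.05, and 4 were called higher by DESeq2 and 3 by voom. Mmp14, a membrane-bound matrix protease 283 kb away, rose to 16.6 ± 2.12 CPM in cKO libraries, against 1.27 ± 0.442 CPM in WT libraries (3.70 ± 0.22, adjusted p = 3.1e-05). Ajuba, a LIM-domain protein 419 kb away, rose to 2.16 ± 0.476 CPM in cKO libraries, against 0.797 ± 0.121 CPM in WT libraries (1.42 ± 0.27, adjusted p = 0.0138), a call ended by leaving out any WT library (0.0529 to 0.0715) or cKO replicates 2 and 7 (0.0783). Near Sox13, 0 of 9 tested genes were called by edgeR, 2 had an unadjusted p under 0.05, DESeq2 called 1 and voom 2.

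Among 14050 genes with a mean of at least 1 CPM, likeness to the summed constant genes was measured as the root mean square difference of centred log2 CPM profiles over the 7 libraries. As a description, with no test, the 6 nearest genes were Nrp2 (0.125), Phka1 (0.165), Ago4 (0.178), Tmem37 (0.183), Bicd1 (0.225) and Fzd6 (0.232), where the median gene was at 0.853. Nrp2, a coreceptor for semaphorins, had 12.7, 9.52, 9.94 and 6.58 CPM in cKO libraries 2, 3, 7 and 12, against 5.53, 2.78 and 2.72 CPM in WT libraries 10, 14 and 19. As with the summed constant genes, replicate 12 was the lowest cKO library and replicate 10 the highest WT library. The members themselves were at 0.329 (Tcrg-C4), 0.349 (Tcrg-C2), 0.367 (Trgj4), 0.423 (Tcrg-V1), 0.46 (Trgv2), 0.642 (Tcrg-C1) and 1.41 (Sox13), and the constant genes are part of the sum.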

How the data were processed

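The authors deposited raw counts of reads per Ensembl gene, without normalization, since the values are whole numbers whose totals differ between libraries. Per the labels' protocols, mRNA was enriched and libraries were stranded. The tool bcl2fastq 2.17 and the build mm10 are named per the submitters' processing notes. The sources used here do not give the aligner, the counter, its use of strand or its handling of reads with several places. Symbols and coordinates came from GENCODE M21, which named 37607 of 39017 identifiers, and 13964 rows had no count.

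With edgeR 4.0.16 (R 4.3.3), low counts were removed by filterByExpr, TMM factors applied and the quasi-likelihood test run for 4 cKO against 3 WT libraries. Benjamini-Hochberg adjustment covered 15968 genes, with a threshold of 0.05. SDs are over libraries, and SEs derive from the F statistic. On simulated counts (15784 genes), the genes given a change were drawn from those with a mean above 1 CPM. Calls took in 78% of 100 genes given a log2 change of 1 and 99% of 100 given 2. Of 185 calls, 4.32% were false. The share found among genes with a lower mean was not measured. No libraries were duplicates: the lowest chi-square per gene was 5.91.

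The members and lists were chosen with earlier results of these data known. Named genes were the members, receptor rows with at least 10 reads, up to 4 genes a list (those called with the lowest p, then the most abundant), called genes within 500 kb, and the 6 genes most like the constant sum. A called gene of these lists is not reported here, though counts over lists include it. Of the list entries, 1 (Ighd) was not matched. Alternatives were DESeq2 1.42.0 and its size factors, upper-quartile factors, limma 3.58.1 voom with quality weights, a stricter filter (1 CPM in 3 libraries), no filter, a threshold of 0.1, prior counts of 0.25 and 5, all gamma rows in the sum, and leaving out each library. Leaving out cKO replicates 2 and 7 together was chosen after seeing the data. Sequences were compared and plots drawn with matplotlib 3.10.9 and pandas 2.3.3 in Python 3.11.15.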

Additional observations from a re-analysis of the deposited data

Results flagged for a closer look

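In 37 values checked among the 4 cKO libraries, 3 had 1 library far from the others, by a gap over the range above 0.829. Chance flags about 1 in 20 such groups. Trdv4, a delta variable gene, had 0.457 CPM in cKO replicate 3, against 1.34 to 1.48 CPM in the other cKO libraries. The scavenger receptor gene 5830411N06Rik had 103 CPM in cKO replicate 2, against 63.6 to 68.6 CPM in the other cKO libraries. Ago4, a gene of the RNA silencing machinery and among the genes most like the constant sum, had 8.53 CPM in cKO replicate 2, against 3.60 to 4.43 CPM in the other cKO libraries. The 2 values in cKO replicate 2 stand in the library that differed most from its group. The 3 WT libraries were too few for this check.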

How the results depend on the processing

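The summed constant genes kept a positive log2 fold change in all 15 alternatives, and no member changed direction in the alternatives that gave a value. Trgj4 moved to 1.06 with a prior count of 5. It could not be fitted under the stricter filter, without cKO replicate 2, 3 or 7, or without cKO replicates 2 and 7, where it fell below the filter. All genes called numbered 1028, 1615 by DESeq2, 1729 by voom and 1644 at a threshold of 0.1. With 1 library left out they ran from 419 (without WT replicate 14) to 1065, with 497 without WT replicate 10 and 466 without WT replicate 19. The 12 calls of the 6 program lists became 19 by DESeq2 and 24 by voom, and 5 (without WT replicate 14) to 16 with 1 library left out, including 6 without WT replicate 10. DESeq2 gave 8 higher and 11 lower, and voom 12 and 12, where edgeR gave 8 and 4. The 6 marker calls became 14 by DESeq2, 12 by voom and 11 at 0.1, and 5 to 9 with 1 library left out. Without cKO replicates 2 and 7 the counts were 701, 10 and 8. Over the 21 single genes past the threshold, each refitted in up to 14 alternatives, 249 of the refits kept the call and 44 lost it. The cause of these changes was not tested. No paired analysis was possible because the labels do not say which cKO and WT libraries share a litter. Segments with few reads, such as Trgj4 at 3 reads in each WT library, limit the precision of their ratios.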
